A study of Mus musculus with 15 samples.

Results

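The genes described here shifted the same way at both stages when Cbx7 was targeted by a hairpin: 75 genes of 21217 measured, 21 of them higher and 54 lower in the knockdown arrays. They were chosen by their measured values. A member had a mean log2 level in knockdown that lay at least 1 above, or at least 1 below, the control mean both in embryoid bodies and in embryonic stem (ES) cells, with every ES knockdown array beyond every ES control array. Genes with names that start with Xlr or Hox were left out, which removed 6 Xlr genes and no Hox gene. Because the knockdown changes chose the members, all of them are given below as a description, with no test.

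The study measured mouse ES cells and EB9 embryoid bodies, the differentiating aggregates made from such cells, on 1-colour Agilent arrays. The 4 groups were EB9 labelled as depleted of Cbx7 with KD33 (4 arrays), EB9 control (4 arrays), ES cells labelled as depleted of Cbx7 with KD33 (4 arrays) and ES control (3 arrays). The treatment label of the controls reads none, and the series design calls the ES control group shCtr. KD33 is a single hairpin, so a change caused by the loss of Cbx7 and one caused by that hairpin alone cannot be told apart.

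Cbx7 is a chromodomain protein that binds trimethylated lysine 27 of histone H3 and carries the canonical form of Polycomb repressive complex 1 to its target genes. In ES cells it is the most abundant of the Cbx subunits, and on differentiation other Cbx proteins take its place. Polycomb targets are typically developmental genes with CG-rich promoters, held silent until a lineage uses them.

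A level below is the log2 processed signal minus the 75th percentile of that signal on the same array, so 0 is a bright gene and values near −8 or −9 lie at background. The 75th percentile itself ranged from 1483 to 2531 intensity units, and arrays of a group correlated at 0.987 to 0.997. The EB9 control 2 array stood apart: 75.4% of its features lay well above background by the scanner software's own test, against 62.5% to 69.0% on the other 14 arrays. The first Cbx7 probe averaged −7.19 (−8.57 to −5.78) in EB9 knockdown and −6.92 (−8.69 to −5.40) in EB9 control, and −6.07 (−7.85 to −4.44) in ES knockdown and −4.16 (−6.30 to −3.04) in ES control. Its groups overlapped at both stages, and it lay well above background on 3 ES control arrays but on only 2 arrays of each other group. The second Cbx7 probe, well above background on all 15 arrays, differed by −0.16 in EB9 and by −0.13 in ES cells. Its groups overlapped as well, so these probes do not show a clear loss of Cbx7 RNA. Arrays shared 4 slides, and each group kept 1 position on every slide, so group and position are confounded and cannot be told apart.

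Over all genes, 1.00% reached +1 in EB9 and 2.02% in ES cells, and 1.11% reached −1 in EB9 and 3.68% in ES cells; both limits were part of the rule. Among the 21 higher members the change ran from 1.01 to 2.53 in EB9, with a median of 1.24, and from 1.01 to 2.35 in ES cells, with a median of 1.44. Among the 54 lower members it ran from −1.89 to −1.0 in EB9, with a median of −1.23, and from −3.99 to −1.01 in ES cells, with a median of −1.55. The EB9 change was the larger one for 11 of 21 higher members and for 15 of 54 lower members. All knockdown arrays lay beyond all control arrays in EB9 too for 17 of 21 higher members, where 8.05% of all genes did so in that direction. The same held for 25 of 54 lower members, where 7.61% of all genes did so, but this count comes from the contrast the rule used.

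**Figure D1:**
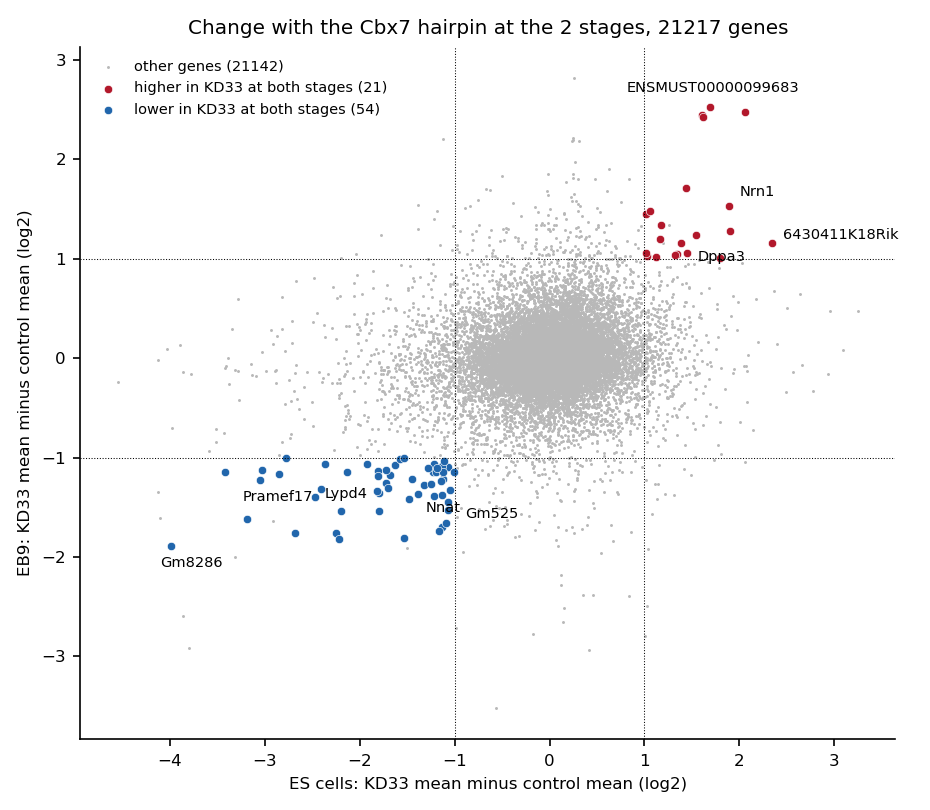
Knockdown mean minus control mean on the log2 scale for 21217 genes, with EB9 on the vertical axis and ES cells on the horizontal axis. Red points are the 21 higher members, blue points the 54 lower members, grey points all other genes, and the dotted lines mark changes of 1 and −1. A tight group of 4 unnamed transcripts sits at EB9 changes of 2.43 to 2.53, and the lower members spread to an ES change of −3.99 while none passes −1.89 in EB9.

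Dim probes carry much of the lower set. In EB9, both groups had an array well above background for 19 of 21 higher members but for only 24 of 54 lower members. A further 29 lower members had such an array in EB9 control only, and 1 in neither group. In ES cells both groups had one for 15 higher and 36 lower members. Where the dimmer of 2 groups was not well above background on any array, a fold is given as "at least". Such a bound sets the brighter group against the array's faintest probe that did pass this test, or against the probe's own signal if that was higher.

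EB9 control 2 was the highest of the 4 EB9 control arrays for 42 of the 54 lower members (77.8%), against 39.0% of all genes, and for 8 of the 21 higher members. Without that array 29 of the 54 lower members still reached −1 in EB9, 24 did not and 1 no longer passed the filter on dim probes, and the median of the lower set was −1.05. Of the 24, 17 had no EB9 knockdown array well above background. Among the 21 higher members 19 still reached +1, and Wt1 and Nell1 did not. How far the wider detection on this array accounts for the EB9 changes of dim members was not tested. The authors' deposited log2 values moved both sets further: the changes were smaller, and 4 higher and 6 lower genes met the rule, all of them members here. They were the 4 unnamed transcripts described next, with Plagl1, H19, Srgn, Ccdc53, Rab7l1 and Cubn.

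**Figure D2:**
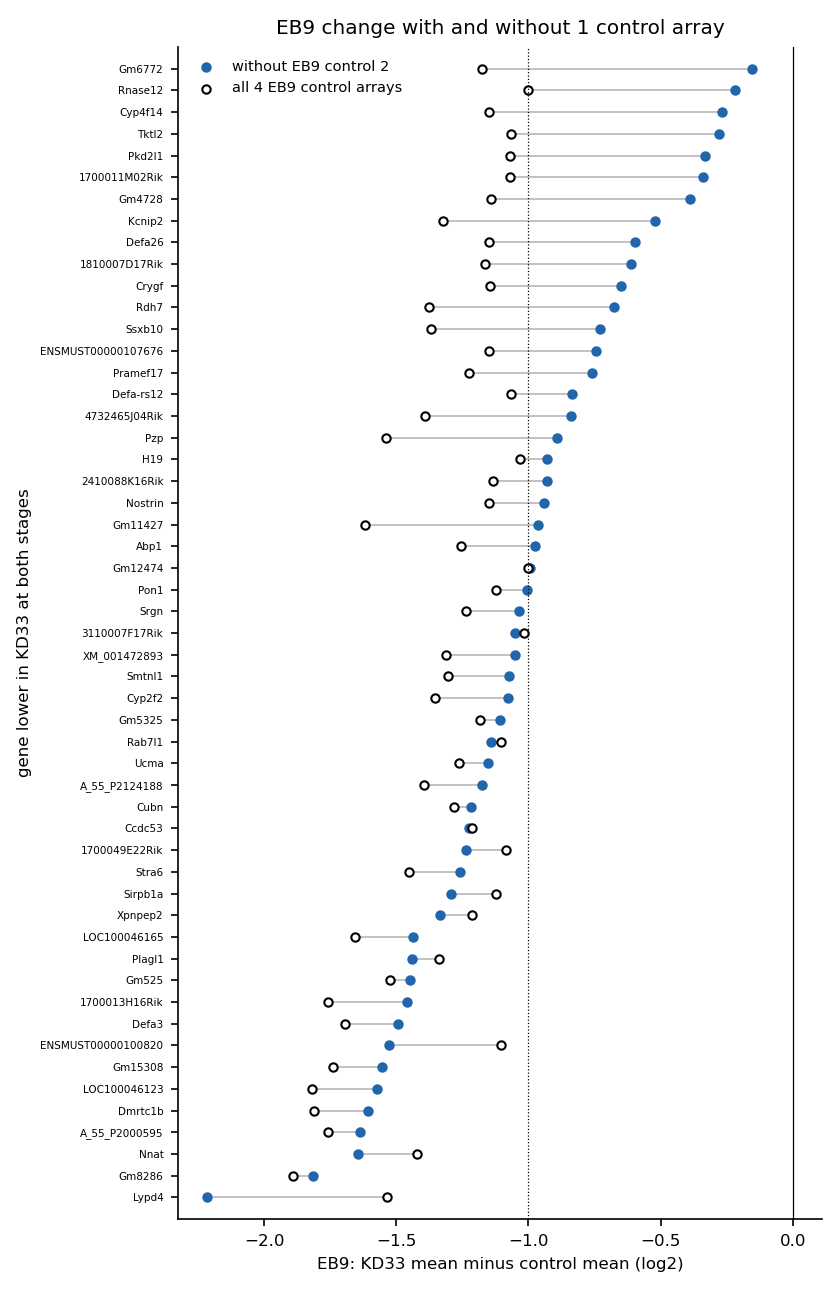
Change in EB9 (knockdown mean minus control mean, log2, horizontal axis) for the lower members, one per row. Not drawn is 1700001J04Rik, which did not pass the filter on dim probes without EB9 control 2. Open circles use all 4 EB9 control arrays and blue circles leave out EB9 control 2, and the dotted line marks −1. Gm6772 shifts most towards 0, to −0.15, while Gm8286, Plagl1, Ccdc53 and Rab7l1 barely move and Lypd4 moves the other way, to −2.22.

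The greatest EB9 changes among the higher members belonged to 4 transcripts without a gene name: ENSMUST00000099035, ENSMUST00000099037 and ENSMUST00000099050, whose probes lie close together on chromosome 9 in mm9 (chr9:3038257-3038316, chr9:3034517-3034576 and chr9:3021700-3021759, all on the plus strand), and ENSMUST00000099683 on chromosome 2 (chr2:98507014-98507072, minus strand). Their 60-base probes, from the annotation of the scanner files, are printed because their shared letters bear on how many separate signals they are. Capitals mark bases within a run of 16 or more that also occurs in another probe of this family on the array. The family was traced through such shared runs, and the 6 of its probes on chromosomes 9 and 2 were kept.
ENSMUST00000099035: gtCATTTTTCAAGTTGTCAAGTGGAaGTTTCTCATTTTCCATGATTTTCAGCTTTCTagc
ENSMUST00000099037: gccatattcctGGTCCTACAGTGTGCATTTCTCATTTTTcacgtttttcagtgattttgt
ENSMUST00000099050: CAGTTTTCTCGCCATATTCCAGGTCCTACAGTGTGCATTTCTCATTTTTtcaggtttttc
ENSMUST00000099683: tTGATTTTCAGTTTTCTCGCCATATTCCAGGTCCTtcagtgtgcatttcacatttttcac

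The probes of ENSMUST00000099037 and ENSMUST00000099050 share 28 bases in a row, and those of ENSMUST00000099050 and ENSMUST00000099683 share 27. Second probes of ENSMUST00000099050 and ENSMUST00000099683 differed by 2.42 and 2.45 in EB9 and by 1.82 and 1.94 in ES cells. The probe of ENSMUST00000099035 shares 31 with a probe of ENSMUST00000099046, a gene that differed by 2.45 in EB9 and by 1.63 in ES cells but is not a member. That gene missed the condition on overlap in ES cells, although its changes reached the limit. The 4 members may therefore report fewer than 4 separate transcripts, and the arrays cannot tell these apart. Whether these probes read single genes or a repeat with many copies in the genome was not tested, so they may not count as genes.

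ENSMUST00000099683 had levels of 0.53, 0.54, 1.36 and 1.53 in EB9 knockdown, against −1.80, −1.72, −1.32 and −1.30 in EB9 control. In ES knockdown it had −2.81, −0.33, −2.32 and −2.21, against −4.10, −3.59 and −3.15 in ES control. The EB9 groups were well separated, at 5.76-fold, and the 3.24-fold difference in ES cells was carried in part by ES knockdown 2. The other 3 had the same shape, with EB9 differences of 2.43 to 2.48 and ES differences of 1.61 to 2.06. ENSMUST00000099035 was at −4.72, −1.38, −3.64 and −3.74 in ES knockdown, against −6.11, −5.38 and −4.82 in ES control, and ES knockdown 2 again stood above the other 3. All 4 were brighter in EB9 than in ES cells by 1.92 to 2.49, averaged over knockdown and control, with adjusted p-values of 9.39e-06 to 0.00135 by limma.

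Nrn1, Ptger3, Dll4 and Nell1 encode proteins of the cell surface or secreted proteins and are placed together here for that reason alone, after their values were seen. Nrn1, which encodes neuritin, a membrane-anchored protein that promotes the outgrowth of neurites, had levels of −0.09, −1.35, −0.52 and −0.35 in EB9 knockdown, against −1.62, −2.25, −2.35 and −2.21 in EB9 control. In ES knockdown it was at −5.71, −5.94, −5.77 and −5.41, against −8.12, −7.48 and −7.19 in ES control, where no array lay well above background. The groups did not overlap at either stage, and the differences were 2.89-fold in EB9 and at least 2.20-fold in ES cells.

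Ptger3, the EP3 receptor for prostaglandin E2, had levels of −0.78, −2.13, −1.19 and −1.28 in EB9 knockdown, against −2.41, −3.0, −2.68 and −2.65 in EB9 control (2.53-fold). In ES cells it lay near background, at −7.16, −7.30, −6.83 and −7.13 in knockdown and at −8.43, −8.46 and −7.95 in control, and no fold is given. A second Ptger3 probe differed by 1.42 in EB9 and was well above background on 8 of the 15 arrays, with ES levels at background. Dll4, a transmembrane ligand of Notch receptors that acts in blood vessels, had levels of −2.23, −2.12, −1.64 and −2.10 in EB9 knockdown, against −2.89, −3.12, −2.97 and −3.23 in EB9 control. Its ES levels were −4.70, −4.70, −4.55 and −5.18 in knockdown, against −5.69, −5.83 and −5.90 in control. Neither stage showed overlap for Dll4, yet at 1.03 in both it lay close to the limit. In EB9 the difference was 0.90 without EB9 knockdown 3 and 0.97 without EB9 control 4, and in ES cells it fell below 1 without ES control 4 (0.98) and without ES knockdown 3 (0.95), 2 (0.997) or 1 (0.998).

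Nell1, a secreted glycoprotein with roles in bone and cartilage, was at 0.52, −1.59, −0.49 and −0.41 in EB9 knockdown, against −0.94, −2.13, −1.76 and −1.77 in EB9 control. EB9 knockdown 2 lay within the range of the controls, and without EB9 knockdown 1 the difference was 0.82 instead of 1.16. Its ES levels of −3.06, −3.13, −3.35 and −3.11 in knockdown stood clear of −4.47, −4.40 and −4.79 in control.

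The developmental regulators among the higher members were Wt1, Isl2 and Dppa3. Wt1, a zinc finger factor of kidney, gonad and mesothelium, had levels of 2.63, 1.06, 1.87 and 1.85 in EB9 knockdown, against 1.24, 0.55, 0.71 and 0.67 in EB9 control, so EB9 knockdown 2 overlapped with the controls. The ES arrays read −2.15, −2.01, −2.17 and −2.21 in knockdown, against −3.09, −3.17 and −3.19 in control, with no overlap. The EB9 difference of 1.06 was 0.80 without EB9 knockdown 1 and 0.98 without EB9 control 2, and the ES difference of 1.02 was 0.98 without ES knockdown 2 and 0.999 without ES control 4.

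Isl2, a LIM homeodomain factor of motor neurons, was at −2.71, −2.10, −2.33 and −2.45 in EB9 knockdown, against −3.85, −3.14, −3.33 and −3.30 in EB9 control. Its ES levels were −1.88, −1.56, −1.58 and −1.81 in knockdown, against −3.69, −3.46 and −3.36 in control. The ES groups lay 3.47-fold apart, while the EB9 difference of 1.01 was the nearest to the limit of all higher members and was 0.86 without EB9 control 1, 0.91 without EB9 knockdown 2 and 0.98 without EB9 knockdown 3. Dppa3, also named Stella, is a maternal factor and a marker of naive pluripotency and of primordial germ cells. It was at −1.35, −0.82, −1.04 and −1.13 in EB9 knockdown, against −2.59, −1.91, −1.95 and −2.13 in EB9 control, and at 1.72, 1.69, 1.95 and 1.88 in ES knockdown, against 0.18, 0.42 and 0.48 in ES control. The difference was 2.08-fold in EB9, where it was 0.91 on the log2 scale without EB9 control 1 and 0.97 without EB9 knockdown 2, and 2.73-fold in ES cells.

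Of the list of 35 pluripotency genes, all measured, Dppa3 was the only member, and the medians of the list were 0.15 in EB9 and −0.12 in ES cells. Of 132 measured developmental transcription factors Wt1 was the only member on the list; 1 reached +1 and 8 reached −1 in EB9, and 27 reached +1 and 5 reached −1 in ES cells. The medians of that list were −0.21 and 0.33, beside −0.01 and 0.04 over all genes. Of all genes, 1.00% reached +1 and 1.11% reached −1 in EB9, and 2.02% and 3.68% did so in ES cells.

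Both histone members belong to genes of the replication-type clusters. Hist1h2ac (now H2ac6) had levels of −4.28, −4.52, −4.17 and −3.99 in EB9 knockdown, against −5.39, −5.31, −5.75 and −5.34 in EB9 control. In ES knockdown it had −7.04, −6.46, −6.42 and −7.27, against −7.96, −8.24 and −7.71 in ES control, a difference of at least 1.03-fold. ENSMUST00000051089, described in the files as H2bb of histone cluster 2, differed by 1.04 in EB9 and by 1.32 in ES cells with no overlap at either stage. Its EB9 difference was 0.96 without EB9 knockdown 1 and likewise without EB9 control 1, and 0.997 without EB9 knockdown 3. A separate entry named Hist2h2bb (now H2bc18) differed by only 0.23 in EB9 and by 0.05 in ES cells. The 48 measured histone cluster genes were grouped after the values were seen. Of these, 6 (12.5%) reached +1 in EB9 and 4 (8.33%) in ES cells, against 1.00% and 2.02% of all genes. Their medians were 0.06 and 0.22. None reached −1 in EB9 and 1 did in ES cells, Hist1h2bg, which differed by −1.18 there and by 1.48 in EB9. The labelling primed on poly(A) with oligo-dT, and most transcripts of these clusters lack a poly(A) tail.

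Usp26, an X-linked deubiquitinase known from testis, was at −6.96, −6.58, −4.12 and −6.11 in EB9 knockdown, against −7.66, −7.03, −8.85 and −7.10 in EB9 control, none of them well above background. Its EB9 difference was at least 1.61-fold and rested in part on EB9 knockdown 3, without which the log2 difference was 1.11 instead of 1.72. Levels in ES cells were −4.29, −4.19, −4.40 and −4.51 in knockdown, against −5.52, −5.79 and −6.04 in control, with a clear gap between the groups. The non-coding 6430411K18Rik was at −2.04, −2.73, −2.43 and −2.20 in EB9 knockdown, against −3.21, −3.80, −3.61 and −3.40 in EB9 control, and at −3.41, −4.17, −3.93 and −3.79 in ES knockdown, against −5.79, −6.53 and −6.21 in ES control. It overlapped at neither stage, and its 5.09-fold difference in ES cells was the greatest of the higher members.

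Nol4 differed by 1.28 in EB9 and by 1.90 in ES cells, and C530014P21Rik by 1.24 in EB9 and by 1.54 in ES cells. Nol4 was dim, with no ES control array and 2 of 4 ES knockdown arrays well above background, which leaves at least 1.07-fold in ES cells. The remaining 4 higher members were Ubd, a ubiquitin-like modifier, and 3 cDNA clones (4731420N21, 5330406M23Rik and 6720474J12Rik). They differed by 1.02 to 1.48 in EB9 and by 1.01 to 1.34 in ES cells, and 2 of the 4 did not overlap in EB9. In ES cells no Ubd array lay well above background in either group.

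**Figure D3:**
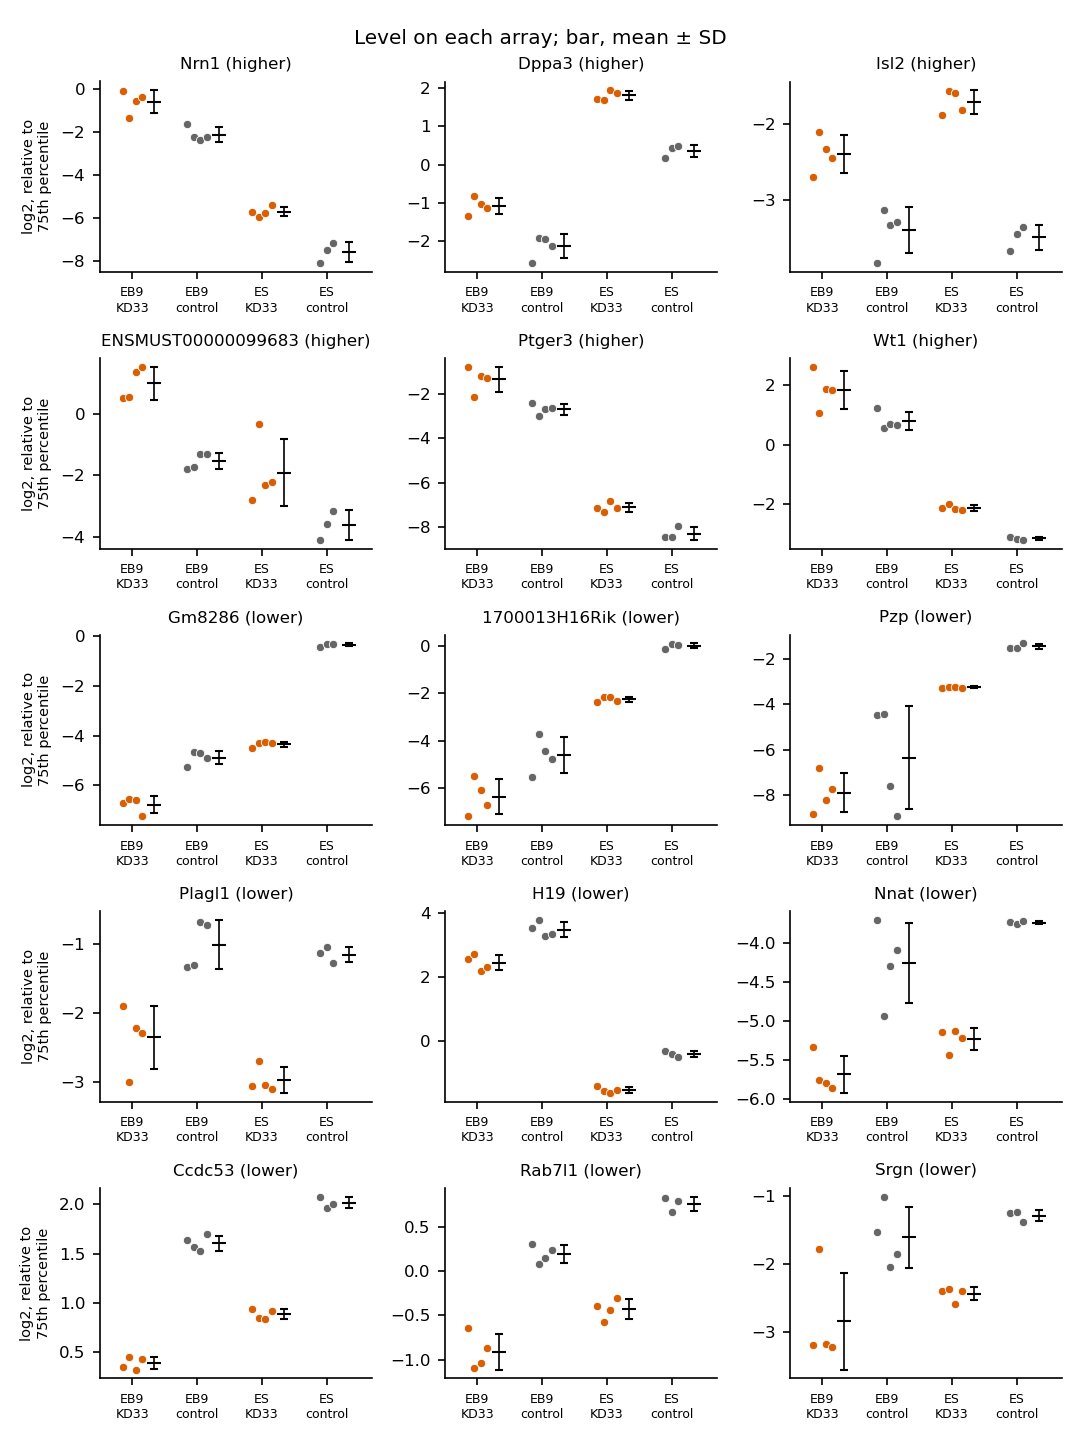
Level on each array (log2 signal relative to the array's 75th percentile) for 6 higher members in the upper rows and 9 lower members in the lower rows. Orange points are knockdown arrays and grey points control arrays of EB9 and of ES cells, and the bar beside each group is its mean ± SD. The ES groups separate in every panel, while in EB9 the groups overlap for Wt1, 1700013H16Rik, Pzp and Srgn.

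Among the lower members, 3 were on a fixed list of imprinted genes, which are expressed from the allele of 1 parent. Plagl1, or Zac1, encodes a zinc finger factor that restrains cell growth, and its probe lies at chr10:12850832-12850891 (mm9). It was at −1.90, −2.99, −2.21 and −2.29 in EB9 knockdown, against −1.33, −1.31, −0.68 and −0.72 in EB9 control. On the ES arrays it read −3.05, −2.69, −3.04 and −3.09 in knockdown, against −1.13, −1.05 and −1.28 in control. The groups stood apart at both stages, by 2.53-fold in EB9 and by 3.52-fold in ES cells. Of 3 further Plagl1 probes, 1 differed by −1.35 in EB9 and by −1.75 in ES cells, and the other 2 by −0.21 and 0.11 in EB9 and by −0.06 and 0.09 in ES cells.

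H19, a non-coding RNA of the Igf2 locus that is expressed from the maternal allele, had levels of 2.58, 2.72, 2.21 and 2.33 in EB9 knockdown, against 3.54, 3.79, 3.28 and 3.35 in EB9 control. In ES knockdown it had −1.39, −1.55, −1.62 and −1.51, against −0.31, −0.40 and −0.49 in ES control. H19 was the brightest of the lower members in EB9, with no overlap at either stage, and its EB9 difference of −1.03 was −0.93 without EB9 control 2, −0.95 without EB9 knockdown 3 and −0.99 without EB9 knockdown 4. Nnat, a paternally expressed proteolipid of brain, was at −5.33, −5.75, −5.79 and −5.86 in EB9 knockdown, against −3.71, −4.94, −4.30 and −4.10 in EB9 control. Its ES levels were −5.14, −5.43, −5.13 and −5.22 in knockdown, against −3.74, −3.77 and −3.73 in control. A second Nnat probe differed by −1.78 in EB9 and by −1.52 in ES cells, in the same direction as the first.

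Of 66 measured genes on the list of imprinted genes, none reached +1 and 5 reached −1 in EB9. In ES cells 8 reached +1 and 9 reached −1. The shares of all genes at +1 and −1 were 1.00% and 1.11% in EB9, and 2.02% and 3.68% in ES cells. No higher member was on this list, which need not hold every imprinted gene. The medians of the list, −0.04 in EB9 and 0.18 in ES cells, lay near those of all genes, −0.01 and 0.04. Nothing is read from the list beyond these counts.

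Of the lower members 12 lay well above background on all 15 arrays. They were the imprinted genes above, the defensins Gm15308, Defa3 and LOC100046165 described further on, and Ccdc53, Rab7l1, Srgn, Cubn, Xpnpep2 and Stra6. Ccdc53, now Washc3, is a subunit of the WASH complex, which builds actin on endosomes. It had levels of 0.35, 0.45, 0.33 and 0.43 in EB9 knockdown, against 1.63, 1.57, 1.52 and 1.70 in EB9 control, and 0.94, 0.85, 0.84 and 0.92 in ES knockdown, against 2.08, 1.97 and 2.00 in ES control. The arrays of a group lay within a narrow band, and the differences were 2.32-fold in EB9 and 2.18-fold in ES cells. Rab7l1, now Rab29, is a small GTPase of endosomes and the Golgi. It was at −0.65, −1.10, −1.04 and −0.87 in EB9 knockdown, against 0.31, 0.08, 0.14 and 0.23 in EB9 control, and at −0.40, −0.58, −0.44 and −0.31 in ES knockdown, against 0.82, 0.67 and 0.79 in ES control. Second probes of Ccdc53 and Rab7l1 differed by −1.19 and −1.07 in EB9 and by −1.09 and −1.06 in ES cells.

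Srgn, serglycin, a proteoglycan of secretory granules, was at −3.20, −1.78, −3.18 and −3.22 in EB9 knockdown, against −1.54, −1.01, −2.05 and −1.85 in EB9 control. EB9 knockdown 2 lay inside the range of the controls. In ES cells the levels were −2.40, −2.36, −2.58 and −2.40 in knockdown, against −1.26, −1.24 and −1.38 in control, with no overlap. Cubn, cubilin, an endocytic receptor of visceral endoderm and kidney, had the same exception, at −0.42, 1.47, −0.06 and −0.01 in EB9 knockdown, against 1.62, 1.71, 1.36 and 1.41 in EB9 control. Its ES levels were −3.81, −3.54, −3.89 and −3.66 in knockdown, against −2.34, −2.31 and −2.54 in control. A second Cubn probe differed by −1.27 in EB9 and was well above background on 8 of the 15 arrays, with ES levels near background. Of 8 markers of primitive and visceral endoderm, all measured, Cubn and Amn reached −1 in EB9, none reached +1, and the median was −0.27. The mean level of the 8 markers lay between 0.04 and 1.01 on the EB9 knockdown arrays and between 0.76 and 1.03 on the EB9 control arrays, with all 8 well above background, and its part in the Cubn difference was not tested. In bulk samples fewer cells of a type and less RNA per cell cannot be told apart. In ES cells only Cubn of the 8 reached −1, and 3 of the 8 markers had no array well above background.

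Xpnpep2, a membrane-bound aminopeptidase, had levels of −5.10, −4.25, −4.49 and −4.47 in EB9 knockdown, against −3.29, −3.74, −3.30 and −3.13 in EB9 control. The ES arrays read −3.01, −3.17, −3.20 and −3.14 in knockdown, against −1.55, −1.74 and −1.74 in control. Stra6, the cell surface receptor for retinol-binding protein, was at −6.03, −5.44, −6.54 and −6.03 in EB9 knockdown, against −4.98, −3.98, −4.51 and −4.77 in EB9 control, and at −4.20, −3.85, −4.13 and −4.10 in ES knockdown, against −3.03, −2.99 and −2.99 in ES control. Neither gene overlapped at either stage.

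Apart from Nostrin, Gm15308, Defa3, LOC100046165 and Defa-rs12, the lower members described next were not well above background on every EB9 knockdown array. Gm8286, a predicted gene with a probe at chr1:129985837-129985896, was at −6.71, −6.54, −6.59 and −7.25 in EB9 knockdown, against −5.27, −4.66, −4.71 and −4.90 in EB9 control, or 3.71-fold with 2 of the 4 knockdown arrays well above background. Levels in ES cells were −4.49, −4.30, −4.26 and −4.31 in knockdown, against −0.42, −0.31 and −0.31 in control. This 15.9-fold difference was the greatest of all members in ES cells, and the groups were far apart at both stages.

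1700013H16Rik, an X-linked transcript known from a testis cDNA, was at −7.19, −5.48, −6.07 and −6.70 in EB9 knockdown, against −5.52, −3.71, −4.42 and −4.75 in EB9 control, where the ranges overlapped. On the ES arrays it read −2.37, −2.17, −2.16 and −2.31 in knockdown, against −0.12, 0.07 and 0.05 in control, with a clear gap. The unnamed X-linked probe A_55_P2000595 (chrX:71945677-71945736) was at −7.29, −7.52, −8.75 and −8.41 in EB9 knockdown, none of them well above background, against −6.01, −5.87, −6.71 and −6.34 in EB9 control, or at least 1.46-fold. Its ES levels were −3.62, −3.35, −3.42 and −3.60 in knockdown, against −0.85, −0.68 and −0.93 in control. The groups did not overlap at either stage for this probe.

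Pzp, a secreted protease inhibitor of the alpha-2-macroglobulin family, was at −8.83, −6.80, −8.22 and −7.75 in EB9 knockdown, against −4.49, −4.43, −7.59 and −8.94 in EB9 control. The ES arrays read −3.27, −3.23, −3.23 and −3.29 in knockdown, against −1.53, −1.53 and −1.33 in control, a difference of 3.47-fold with very little spread. The EB9 controls split, with 2 arrays far above the other 2, and the EB9 difference of −1.54 was −0.91 without EB9 control 1, −0.89 without EB9 control 2 and −2.40 without EB9 control 4.

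Dmrtc1b, an X-linked relative of the DMRT factors, was at −8.72, −7.87, −8.73 and −8.80 in EB9 knockdown, against −6.44, −6.09, −7.47 and −6.86 in EB9 control, or at least 1.04-fold. Levels in ES cells were −4.76, −4.80, −4.81 and −4.80 in knockdown, against −3.29, −3.28 and −3.22 in control. Its groups were cleanly apart at both stages, although no EB9 knockdown array and only 1 EB9 control array lay well above background. Smtnl1, a smoothelin-like protein of muscle, was at −7.82, −7.36, −7.89 and −7.77 in EB9 knockdown, against −6.58, −5.71, −6.52 and −6.81 in EB9 control, or at least 1.30-fold. In ES cells Smtnl1 was at −2.44, −2.51, −2.49 and −2.50 in knockdown, against −0.78, −0.84 and −0.71 in control. Gm525, a predicted gene, was at −6.98, −7.12, −7.92 and −6.88 in EB9 knockdown, against −6.24, −5.47, −5.56 and −5.53 in EB9 control, at least 2.11-fold, and at −1.31, −1.39, −1.42 and −1.24 in ES knockdown, against −0.26, −0.35 and −0.20 in ES control. Neither of these genes overlapped at either stage, and in EB9 Smtnl1 lay well above background on only 1 array, a control.

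For several lower members the EB9 difference fell short of the limit without EB9 control 2. Gm6772 (now Lrrc74a) was at −8.91, −9.16, −9.07 and −8.95 in EB9 knockdown, against −8.62, −4.78, −8.92 and −9.06 in EB9 control, and its EB9 difference of −1.18 was −0.15 without that array. Kcnip2, a calcium-binding subunit of potassium channels, was at −7.44, −7.39, −8.19 and −6.96 in EB9 knockdown, against −6.58, −3.76, −7.39 and −6.95 in EB9 control, and −1.32 became −0.52; its ES difference of −1.05 was −0.96 without ES control 2. In Pkd2l1, a cation channel, −1.07 became −0.33 (and −0.95 without EB9 knockdown 4), in Pramef17 (now Pramel14, of the PRAME family) −1.22 became −0.76, and in Gm4728 −1.14 became −0.39. Their ES groups did not overlap: Gm6772 was at −3.44, −3.70, −3.47 and −3.45 in ES knockdown, against −1.78, −1.95 and −1.77 in ES control, and Pramef17 at −3.71, −3.79, −3.79 and −3.64 in ES knockdown, against −0.61, −0.65 and −0.77 in ES control. Gm4728, described as similar to a PRAME-type antigen, had an ES difference of at least 8.63-fold.

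LOC100046123, described as similar to an ATP-binding cassette transporter, differed by at least 2.08-fold in EB9 and by at least 2.73-fold in ES cells, with no overlap and with no knockdown array well above background. Gm11427, described as similar to schlafen 4, was at −8.77, −9.11, −9.05 and −8.85 in EB9 knockdown, against −6.11, −5.37, −8.89 and −8.94 in EB9 control, and its EB9 difference of −1.62 was −0.96 without EB9 control 2. Lypd4, of the Ly6 family, was at −8.10, −9.23, −9.03 and −7.64 in EB9 knockdown, against −5.05, −9.01, −5.25 and −8.55 in EB9 control. Its EB9 difference of −1.53 was −0.90 without EB9 control 1, −0.96 without EB9 control 3 and −2.22 without EB9 control 2. In ES cells both were well above background in control only, which leaves a difference of at least 2.84-fold for Gm11427 and at least 1.80-fold for Lypd4. Nostrin, which guides the traffic of nitric oxide synthase, and Abp1 (now Aoc1, diamine oxidase) differed by −1.15 and −1.26 in EB9, and by −0.94 and −0.98 without EB9 control 2. Nostrin also differed by −0.996 without EB9 knockdown 3. Abp1 differed by −1.72 in ES cells and Nostrin by at least 2.48-fold.

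The alpha-defensins, small antimicrobial peptides best known from the Paneth cells of the intestine, gave 5 lower members. Gm15308 (now Defa32) was at −4.67, −4.18, −5.07 and −4.50 in EB9 knockdown, against −3.21, −2.31, −3.13 and −2.82 in EB9 control, and at −3.90, −4.16, −4.08 and −3.87 in ES knockdown, against −2.62, −3.0 and −2.89 in ES control. Defa3 was at −4.76, −4.22, −4.90 and −4.84 in EB9 knockdown, against −3.31, −2.38, −3.25 and −3.01 in EB9 control, and at −2.93, −3.44, −3.20 and −3.04 in ES knockdown, against −1.87, −2.13 and −2.07 in ES control. Neither overlapped at either stage, by 3.34-fold and 3.24-fold in EB9 and by 2.24-fold and 2.19-fold in ES cells.

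LOC100046165, described as similar to Defa1 protein, differed by −1.66 in EB9 and by −1.09 in ES cells. Defa26 differed by −1.15 and −1.20 and Defa-rs12 by −1.07 and −1.22, and without EB9 control 2 neither reached −1 in EB9. The 17 measured alpha-defensins were grouped after the values were seen. Of these, 10 (58.8%) reached −1 in EB9 and 12 (70.6%) in ES cells, against 1.11% and 3.68% of all genes. None of the 17 reached +1 at either stage. Their medians were −1.07 in EB9 and −1.13 in ES cells. These genes are close copies: probes of Defa3 and Gm15308 share 20 bases in a row, and the probe of Defa26 shares 28 with each of 2 other defensin probes, so the probes may read each other's transcripts. Defa3 also had 2 further probes, well above background on 13 and 9 of the 15 arrays, that differed by 0.45 and 0.17 in EB9 but by −1.19 and −1.26 in ES cells. With normexp background correction, which sets a floor under dim probes, 5 of the 17 defensins reached −1 in EB9 and 2 in ES cells, with medians of −0.67 in EB9 and −0.47 in ES cells. On the authors' deposited log2 values the counts were again 5 and 2.

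The remaining 23 lower members included Cyp2f2 and Cyp4f14 (cytochromes P450), Rdh7 (a retinol dehydrogenase), Pon1 (paraoxonase), Ucma (of cartilage matrix), Crygf (a lens crystallin), Tktl2 (a transketolase relative), Sirpb1a, Rnase12, Ssxb10, Gm5325 (now Scgb1b3), 2410088K16Rik (now Platr5) and 3110007F17Rik (now Cldn34c1). The other 10 were cDNA clones, predicted genes and unnamed probes. These 23 differed by −1.39 to −1.0 in EB9 and by −3.03 to −1.01 in ES cells. In EB9, 16 of them were well above background in control only, 6 in both groups and 1 in neither, and 8 did not overlap. By their descriptions 4 of the 54 lower members came from cDNAs of adult male testis, as did 172 of all 21217 genes. Of those 172, 12.8% reached −1 in ES cells, against 3.68% of all genes.

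Next to the limit, the higher members with the smallest of their 2 changes were Isl2 (1.01 in EB9), 4731420N21 (1.01 in ES cells) and 5330406M23Rik (1.02 in EB9), and the genes just outside were Ppargc1a (0.97 in EB9), Hist3h2ba (0.96 in ES cells) and 8030494B02Rik (0.96 in EB9). On the lower side Gm12474 (−1.0 in EB9), Rnase12 (−1.0 in EB9) and Crygf (−1.01 in ES cells) lay just inside. Defa-ps1 (−1.0 in EB9), Slc7a9 (−1.0 in ES cells) and Igh-VJ558 (−0.99 in EB9) lay just outside.

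The difference between the stages, EB9 minus ES cells averaged over knockdown and control, was not a condition of the rule and was tested in all genes with limma, with Benjamini-Hochberg adjustment. The filter on dim probes bears on it, because a gene that passed through 1 stage alone had to be brighter there. It let 27 of the 54 lower members in through ES cells alone, and 3 lower and 5 higher members through EB9 alone. The counts that follow therefore keep to genes well above background on 3 or more arrays of a group at each stage. Of these 18446 genes, 35.3% were higher and 46.1% lower in EB9 at an adjusted p under 0.05, with a median of −0.15. The p-values measure only the spread between these arrays.

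Of the higher members 16 met this condition, of which 11 were higher and 5 lower in EB9. Of the lower members 24 met it, of which 5 were higher in EB9, 13 were lower and 6 did not pass. With no such condition, 16 of 21 higher members were higher and 5 lower in EB9, and 7 of 54 lower members were higher and 38 lower, beside 35.6% and 46.6% of all genes. Nothing is read from these last counts, since the filter fixed the direction of many of them.

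Among the higher members measured at both stages, Nrn1 had the greatest stage difference relative to its error. It was higher in EB9 by 5.31 ± 0.20 (moderated SE, 8 EB9 and 7 ES arrays, adjusted p = 1.20e-11 by limma), with 4 of the 7 ES arrays well above background. Dll4 was higher in EB9 by 2.76 ± 0.11 (limma, adjusted p = 1.99e-11), while Dppa3 was lower, with a difference of −2.70 ± 0.11 (limma, adjusted p = 2.62e-11). For Ptger3 only 1 of the 7 ES arrays lay well above background, against all 8 EB9 arrays, and no size is given. Among the lower members H19 was higher in EB9 by 3.93 ± 0.09 (limma, adjusted p = 8.84e-14), and Gm8286 was lower, with a difference of −3.48 ± 0.11 (limma, adjusted p = 3.06e-12). Gm525 was lower too (limma, adjusted p = 4.69e-13), with 3 of 8 EB9 arrays well above background. For Smtnl1 only 1 of the 8 EB9 arrays did so, against all 7 ES arrays, and no size is given.

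Wt1 (3.96 ± 0.18) and Cubn (3.95 ± 0.22) were higher in EB9 as well, with limma adjusted p-values of 1.15e-10 and 1.01e-09. Nnat differed by −0.48 ± 0.15 (limma, adjusted p = 0.00876). Plagl1 differed by 0.38 ± 0.16 with an adjusted p of 0.0401 by limma, which was 0.0692 with the slide as a block, so its call was lost. Srgn differed by −0.36 ± 0.22 and did not pass (limma, adjusted p = 0.137).

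The labelled stages were checked against marker genes. All 8 ES cell markers were lower in EB9 by limma, with a median of −4.52, and 7 of 8 endoderm and 6 of 8 mesoderm and blood markers were higher, with medians of 4.73 and 3.15. Markers of fibroblasts, which the labels do not mention, were higher in EB9 for 7 of 8, with a median of 8.51, and none of them reached a knockdown change of 1 in either direction at either stage.

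**Figure D4:**
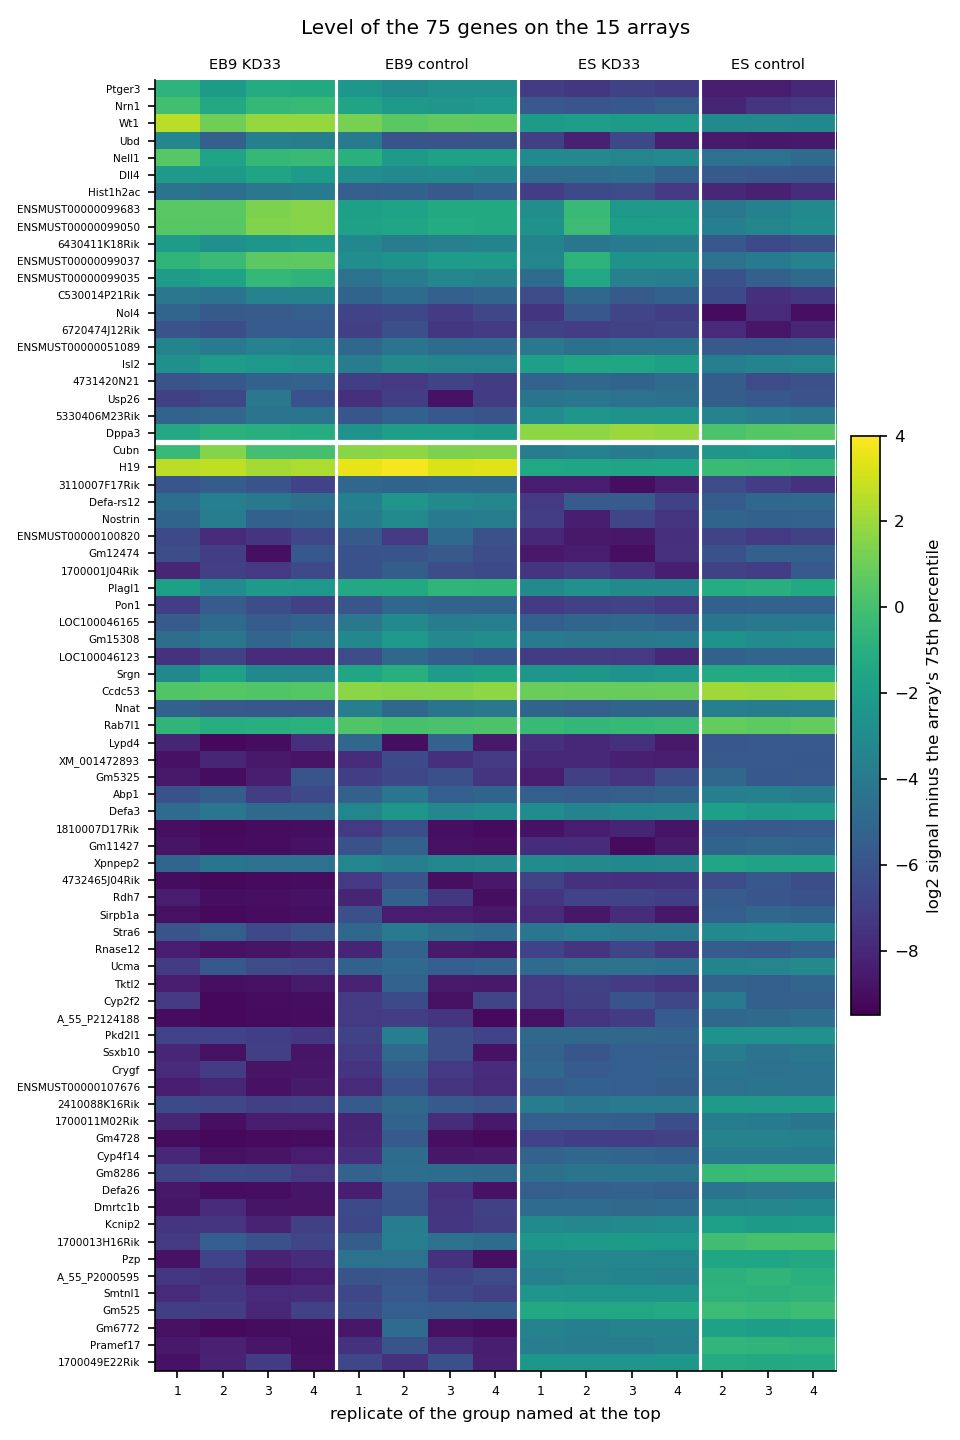
Level of the 75 members (rows) on the 15 arrays (columns, by group and replicate), coloured from dark blue at background to yellow, as log2 signal relative to the array's 75th percentile. The 21 higher members stand above the white line and the 54 lower members below it, each sorted from higher in EB9 at the top to lower in EB9 at the bottom. Most of the lower block is dark in EB9, and the EB9 control 2 column is lighter than its neighbours in many of those rows.

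The X chromosome held 8 of the 54 lower members (14.8%) and 1 of the 21 higher members (4.76%), against 4.18% of all genes, after the rule had removed the Xlr genes. This was not particular to the members. Of all 887 X genes, Xlr genes included, 8.91% reached −1 in ES cells and 2.59% in EB9, against 3.68% and 1.11% of all genes. For +1 the shares were 3.27% in ES cells and 0.45% in EB9, against 2.02% and 1.00%. Members within 1 Mb of each other were the 3 transcripts of chromosome 9, Defa3, Gm15308 and Defa26 on chromosome 8 (89.1 to 301.5 kb apart), 1700011M02Rik and Dmrtc1b on the X chromosome (194.3 kb) and Abp1 with a predicted gene on chromosome 6 (170.6 kb). In each of these clusters the members lay on the same side of the rule.

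Gene starts were compared with the RefSeq promoter sequences (GRCm38.p6, 250 bases before to 50 after the start), which were available for 8 higher members, 36 lower members and 13271 of all genes. The motif counted was CG, which reads the same on both strands. The 5 sequences printed here, the 250 bases before the start, show the contrast between CG-rich and CG-poor members. Capitals mark each CG. Ptger3 (chr3:157566626-157566875, plus strand) and Dll4 (chr2:119325534-119325783, plus strand) are higher members, and Nnat (chr2:157559828-157560077, plus strand), Pzp (chr6:128526721-128526970, minus strand) and Gm525 (chr11:89073591-89073840, plus strand) are lower members.
Ptger3: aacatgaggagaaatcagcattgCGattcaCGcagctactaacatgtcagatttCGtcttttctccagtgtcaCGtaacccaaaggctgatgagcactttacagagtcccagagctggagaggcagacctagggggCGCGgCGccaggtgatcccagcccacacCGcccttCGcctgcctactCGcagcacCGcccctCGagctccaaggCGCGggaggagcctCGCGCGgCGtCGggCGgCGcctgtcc
Dll4: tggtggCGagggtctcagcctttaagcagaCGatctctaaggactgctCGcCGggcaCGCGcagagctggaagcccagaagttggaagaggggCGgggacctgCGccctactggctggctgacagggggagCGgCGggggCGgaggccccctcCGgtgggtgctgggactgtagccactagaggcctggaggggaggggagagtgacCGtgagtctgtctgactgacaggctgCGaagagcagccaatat
Nnat: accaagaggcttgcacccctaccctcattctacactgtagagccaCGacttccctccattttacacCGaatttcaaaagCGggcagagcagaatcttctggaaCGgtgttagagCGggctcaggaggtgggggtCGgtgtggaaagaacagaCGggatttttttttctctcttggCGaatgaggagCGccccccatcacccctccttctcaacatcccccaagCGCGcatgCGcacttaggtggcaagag
Pzp: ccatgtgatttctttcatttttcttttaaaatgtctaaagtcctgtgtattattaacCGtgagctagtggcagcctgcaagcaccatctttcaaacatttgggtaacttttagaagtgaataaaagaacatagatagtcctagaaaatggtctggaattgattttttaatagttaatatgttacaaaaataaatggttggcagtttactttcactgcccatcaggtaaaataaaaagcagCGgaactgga
Gm525: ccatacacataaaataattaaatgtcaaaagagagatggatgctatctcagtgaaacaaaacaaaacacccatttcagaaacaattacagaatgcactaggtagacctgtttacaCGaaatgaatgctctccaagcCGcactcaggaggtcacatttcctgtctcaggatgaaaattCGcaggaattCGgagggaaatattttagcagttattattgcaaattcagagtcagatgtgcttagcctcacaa

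These stretches held 21 CG in Ptger3, 14 in Dll4, 12 in Nnat, 2 in Pzp and 4 in Gm525. Over the full 300 bases the median was 11.5 CG for the higher members, 4 for the lower members and 18 for all genes. At least 15 CG were present in 4 of 8 higher members (50%), in 5 of 36 lower members (13.9%) and in 61.0% of all genes. Plagl1, with 26 CG, was among the 5. Genes that reached −1 in ES cells without being members had a median of 6.5 and a share of 23.6% over 436 genes. Those that reached +1 in ES cells without being members had a median of 16 and a share of 55.4% over 251 genes. The other genes lower in ES knockdown also had a low CG content, and the difference between members and these genes was not tested.

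**Figure D5:**
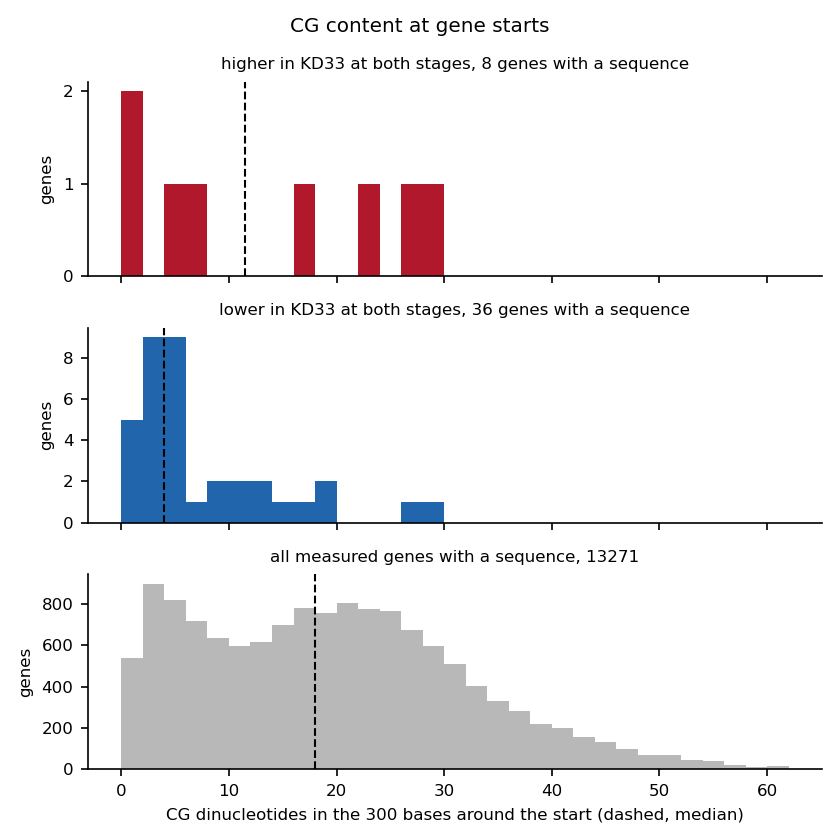
Number of genes (vertical axis, own scale in each panel) by the count of CG dinucleotides in the 300 bases around the start, for higher members (8), lower members (36) and all measured genes with a sequence (13271). The dashed lines are the medians, at 11.5, 4 and 18. The lower members crowd at the low end, while all genes spread on either side of their median.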

How the data were processed

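Cy3-labelled RNA, 500 ng per sample by oligo-dT priming per the labels, was measured on 15 arrays. The authors extracted the scans with Agilent Feature Extraction 10.7.3.1, per the file headers, and the deposited processed signal is a background-corrected intensity in build mm9. The authors also deposited a value table on a log2 scale; how its background was corrected is not stated in any label or header. Each array was scaled by subtracting its 75th percentile over non-control features from the log2 signal. Flagged features (109 to 179 per array) were left out, and no feature was saturated. Probes had to be well above background on 3 or more arrays of some group (27250 did), and the brightest probe stood for each gene name (21217 genes, 79 with a missing value, none of them members). Updated symbols came from RefSeq (GRCm38.p6), matched for 26532 probes by accession, 3912 by symbol and 807 by older symbol; 8178 kept the name in the files. For arrays, their number limits the precision.

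The stage difference was tested with limma 3.58.1 in R 4.3.3, as group means fitted to the 15 arrays together (residual degrees of freedom 11, prior 1.61), two-sided, and checked on simulated data. Genes named are the 8 per direction with the greatest smaller change, members on the gene lists, those next to the limit, and the 4 per direction with the greatest stage statistic; others given by array were chosen after their values were seen. The members and lists were chosen with earlier results of these data known. Deviations of same-numbered arrays from their group means correlated at over 0.1 in all 12 pairs without an ES control (0.22 to 0.55) but in 3 of the 9 pairs with one. ES controls 2, 3 and 4 lie on slides 1, 2 and 3, so number and slide disagree for that group alone. Arrays on the same slide correlated in all 21 pairs (0.21 to 0.63), so the slide rather than the number marks the pairing across all groups. The main fit and the changes given above used no block and so ignore this pairing. The slide entered as a block only among the alternatives. Alternatives covered background correction, scaling, filters, probe choice, blocks and leaving out each array.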

Additional observations from a re-analysis of the deposited data

Results flagged for a closer look

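Among the members selected for naming, 135 groups of 4 arrays were looked at for a single array whose gap to the nearest other exceeded 0.829 of the range of the group. This picked out 10 groups (7.4%), where chance gives about 1 in 20. The ES control group, with 3 arrays, was not looked at. EB9 knockdown 2 stood high in Srgn, at −1.78 with the others at −3.22 to −3.18, in Nostrin, at −3.76 with the others at −5.30 to −5.15, and in Dmrtc1b, at −7.87 with the others at −8.80 to −8.72. EB9 control 2 stood high in Gm6772, at −4.78 with the others at −9.06 to −8.62. EB9 control 1 stood low in Gm525, at −6.24 with the others at −5.56 to −5.47.

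In ES knockdown, replicate 2 stood high in Plagl1, at −2.69 with the others at −3.09 to −3.04, and low in Gm6772, at −3.70 with the others at −3.47 to −3.44. Replicate 1 stood high in Dmrtc1b, at −4.76 with the others at −4.81 to −4.80, replicate 3 stood low in Srgn, at −2.58 with the others at −2.40 to −2.36, and replicate 4 stood low in LOC100046123, at −7.95 with the others at −7.28 to −7.14. Over all 75 members the same look at 225 groups picked out 17 (7.6%).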

How the results depend on the processing

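The rule gave 21 genes up and 54 down. With normexp background correction at an offset of 50 it gave 4 and 5, all of them members, and with the authors' deposited log2 values 4 and 6. Requiring no overlap in EB9 as well gave 25 down. Without EB9 control 2 it gave 30 down; requiring the brighter group of each stage to be well above background on 3 or more arrays, an alternative chosen after seeing the data, gave 24, and both together 16. Leaving out each array in turn gave 16 to 28 up and 30 to 81 down. With the replicate block it gave 19 and 52 genes, and with the slide as a block 20 and 52, of which 20 and 51 were members. Quantile normalisation gave 28 and 41. Counting dim members too, the higher members that passed as higher in EB9 numbered 16 and those lower in EB9 numbered 4 to 5 when arrays were left out, and the lower members 5 to 7 and 27 to 40. With the slide as a block 1 of these calls, that of Plagl1, was lost among lower members measured at both stages. The direction was followed for 90 changes of named members. None of these turned with normexp, quantile normalisation, the deposited values, flagged features kept, either block or an array left out. Crygf, which was not among them, moved from −1.14 to 0.02 in EB9 with normexp. Of all 54 lower members, 53 stayed lower in knockdown in EB9 with normexp, and 52 in ES cells. The other alternatives were run for counts alone. An ES control array left out leaves 2, which then cannot meet the filter of 3 arrays.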
